A study of Lolium multiflorum with 4 samples.

Results

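In seedlings of Lolium multiflorum, a forage grass known as Italian ryegrass, 56 of 111761 assembled contigs were abundant before cadmium and collapsed in both plant lines within 24 h of it. They were chosen by their measured levels: at least 100 FPKM at 0 h in LmHC and in LmLC, and a log2 change of -2 or less in each line, which is at least 4-fold lower. FPKM counts sequenced fragments for each kilobase of a contig, relative to all fragments mapped in that library. The log2 change is log2 of (FPKM + 1) at 24 h over (FPKM + 1) at 0 h, and the added 1 makes it slightly smaller than the plain ratio. Since levels and changes chose the contigs, the size of their fall is given as a description and without a test.

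The series has 4 libraries from plants labelled LmHC (high cadmium) and LmLC (low cadmium), with 1 library for each of 4 groups. LmHC at 0 h and LmLC at 0 h were seedlings 2 weeks old that had been sown on agar, moved into nutrient solution at 7 days and given no cadmium. LmHC at 24 h and LmLC at 24 h were seedlings grown in the same way and then kept for 24 h in 300 µM cadmium chloride. LmHC and LmLC were taken as plant lines because the growth protocol names both as seed, although the sample labels list high or low cadmium as the treatment. No source used here states the tissue or the number of seedlings per library. No library of untreated plants at 24 h was analysed here, so cadmium and 24 h of time cannot be told apart. With 1 library per group there is no replicate check and no residual degree of freedom, and no p-value or SD is given. No depth in fragments is known, so no counting interval can be given either.

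Cadmium is a toxic metal with no known use in land plants, and it enters roots largely through carriers of iron, zinc, calcium and manganese. Plants bind it with thiol-rich peptides, the phytochelatins, and move it into vacuoles. The level of a transcript is set by how fast it is made and how fast it is degraded, and FPKM shows that level only relative to all other RNA in the library. In a bulk sample, fewer cells of a type and less RNA per cell cannot be told apart. The deposited table pairs no contig with a gene name and holds no sequence, so contigs appear under their table names, with no role. A name beginning with CL and a number marks a contig of that assembly cluster, a group of similar sequences, such as gene copies, splice forms or alleles. A name beginning with Unigene marks a contig that stands alone.

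The column totals lay between 782476 and 795368 FPKM. At least 100 FPKM in both 0 h libraries was reached by 986 contigs, called abundant here. Of these, 76 (7.71%) were at least 4-fold lower at 24 h in LmHC and 86 (8.72%) in LmLC, and the 56 that were so in both lines made up 5.68%. Among the 70885 contigs with a mean of at least 1 FPKM over the 4 libraries, called expressed here, the shares were 2.86% in LmHC, 3.16% in LmLC and 1.24% in both. These shares describe the table around the 56 contigs, and nothing is read from them because the rule used the same changes. Abundant contigs as a whole were lower at 24 h. Their median log2 change was -1.05 in LmHC and -1.14 in LmLC, 886 of 986 were lower in both lines by any amount, and 6 were at least 4-fold higher in both. The same rule turned around, with at least 100 FPKM at 24 h in both lines, gave 423 of 973 contigs (43.5%) that were at least 4-fold higher than at 0 h in both. The sets are chosen by high levels at opposite times, and nothing is read from the pair of shares either.

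The 56 contigs held 2.02% of all FPKM in LmHC at 0 h and 0.312% at 24 h. In LmLC they held 2.25% at 0 h and 0.303% at 24 h. They lost 1.71 percentage points of the column total in LmHC and 1.94 in LmLC. Their summed level went from 15854 to 2439 FPKM in LmHC and from 17842 to 2411 FPKM in LmLC, so that 15.4% and 13.5% of it remained. The other 930 abundant contigs kept 59.8% of their summed level in LmHC and 58.4% in LmLC. Added over all abundant contigs that were lower at 24 h, the loss of the 56 contigs made up 10.8% in LmHC and 11.6% in LmLC. The 5 contigs with the highest mean level at 0 h carried 25.4% of the loss of the 56 in LmHC and 28.0% in LmLC.

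At 0 h the levels of the 56 contigs ran from 105 to 1220.1 FPKM in LmHC, with a median of 231, and from 107 to 1389.8 FPKM in LmLC, with a median of 245. At 24 h they ran from 6.77 to 269 FPKM in LmHC, with a median of 40.4, and from 7.81 to 253 FPKM in LmLC, with a median of 36.3. No member was listed at 0 at 24 h. At 24 h, 3 members were still at 100 FPKM or more in LmHC and 3 in LmLC, and 16 and 15 were under 20 FPKM. Among all 986 abundant contigs, 483 in LmHC and 464 in LmLC were at 100 FPKM or more, and 17 and 16 were under 20 FPKM. None of the 986 was listed at 0 at 24 h either. In order of level among all contigs, 53 members stood among the 1000 highest of LmHC at 0 h and 1 did at 24 h. In LmLC 55 did at 0 h and 2 at 24 h. Of all 986 abundant contigs, 935 stood there in LmHC at 0 h and 422 at 24 h, and 949 and 436 in LmLC. The rule chose members by these levels, so the counts are a description. The median rank went from 360 to 3500.5 in LmHC and from 335.5 to 3941 in LmLC.

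**Figure D1:**
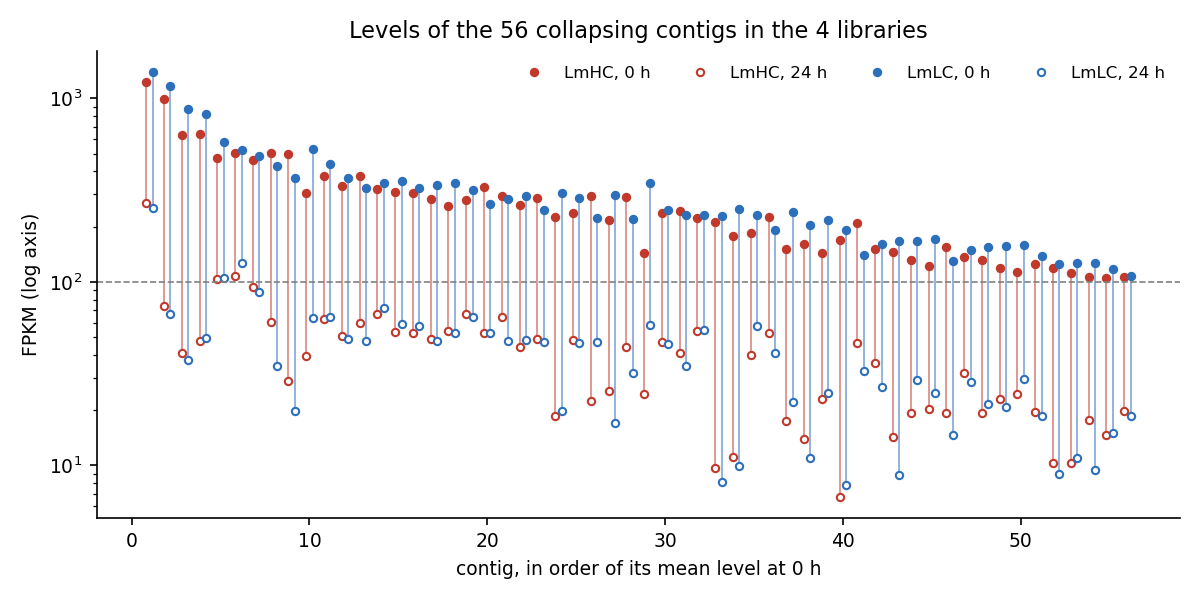
FPKM on a log axis of each of the 56 contigs, in order of mean level at 0 h, with LmHC in red, LmLC in blue, filled points for 0 h and open points for 24 h (1 library each). Every filled point lies above the dashed line at 100 FPKM, and 3 open points of each line do.

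The most abundant member, Unigene14355_All, ranked 3 among all contigs in both 0 h libraries. It had 1220.1 FPKM in LmHC at 0 h and 269 at 24 h, and 1389.8 FPKM in LmLC at 0 h and 253 at 24 h. Its fall was among the smaller ones, with 22.1% of the level remaining in LmHC and 18.2% in LmLC, and at 24 h it was still the highest of the 56 in both lines. It stands alone in the assembly, so the table gives no partner to compare it with.

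The next 3 members by level belong to 1 cluster, CL3063, and lost more. CL3063.Contig8_All went from 985 to 73.6 FPKM in LmHC and from 1169 to 67.0 FPKM in LmLC. CL3063.Contig5_All went from 628 to 41.1 FPKM in LmHC and from 874 to 37.7 FPKM in LmLC. CL3063.Contig4_All went from 642 to 47.8 FPKM in LmHC and from 824 to 49.3 FPKM in LmLC. All 3 began higher in LmLC than in LmHC, and at 24 h the lines lay close together. CL4569.Contig1_All, the fifth by mean level, resembled Unigene14355_All in its fall. It went from 475 to 104 FPKM in LmHC and from 577 to 105 FPKM in LmLC, leaving 22.0% and 18.2%.

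Across the 56 contigs the median log2 change was -2.56 in LmHC and -2.73 in LmLC. In plain ratios without the added 1, a median of 16.6% of the 0 h level remained in LmHC (range 3.99% to 24.2%) and 14.7% in LmLC (range 3.57% to 24.7%). For the other abundant contigs the medians were 49.5% and 47.2%. The median log2 change of all expressed contigs was not 0 but -0.20 in LmHC and -0.14 in LmLC, and relative to it the median change of the 56 was -2.36 and -2.59. Scaling the libraries by the median of ratios over contigs above 0 in all of them moved the median of expressed contigs by 0.22 in LmHC and 0.23 in LmLC. After it the median change of the 56 was -2.13 in LmHC and -2.43 in LmLC, against -2.56 and -2.73 before. The 56 thus moved further than the median of expressed contigs, and more in LmHC than in LmLC. After this scaling, 33 of them still met the rule.

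A deeper fall of at least 8-fold, a log2 change of -3 or less, was reached in both lines by 15 of the 56 contigs and in 1 line alone by 5. By the rule these 15 are also the only such contigs among the 986 abundant ones. Of all 70885 expressed contigs, 80 fell as far in both lines. Of the 15, 14 lay in clusters, 9 clusters in all, and 1 stood alone, against 70.0% of abundant contigs in a cluster. The 14 include all members of CL3063 and CL14990 and are not independent. The deepest was CL13668.Contig1_All, which went from 212 to 9.73 FPKM in LmHC and from 229 to 8.18 FPKM in LmLC, 21.8-fold and 28.0-fold lower. CL13088.Contig1_All went from 169.5 to 6.77 FPKM in LmHC and from 191 to 7.81 FPKM in LmLC, 25.0-fold and 24.5-fold lower. CL14990.Contig1_All went from 178 to 11.1 FPKM in LmHC and from 248 to 9.89 FPKM in LmLC, 16.1-fold and 25.1-fold lower. These 3 had middling levels at 0 h and were among the lowest of the 56 at 24 h. The stand-alone contig with a deep fall was Unigene14092_All, named after its values were seen because it was the only one. It went from 496 to 29.0 FPKM in LmHC and from 368 to 19.8 FPKM in LmLC.

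At the shallow end, CL6499.Contig1_All went from 223 to 53.9 FPKM in LmHC and from 231 to 54.5 FPKM in LmLC. Unigene48016_All went from 185 to 39.9 FPKM in LmHC and from 232 to 57.3 FPKM in LmLC, where it only just met the limit. CL4986.Contig9_All went from 209.8 to 46.6 FPKM in LmHC and from 140.2 to 32.7 FPKM in LmLC. Just outside the limit lay CL15017.Contig8_All, with log2 changes of -1.99 in LmHC and -2.37 in LmLC, Unigene11553_All, with -2.10 and -1.98, and Unigene14109_All, with -2.38 and -1.98. Just inside lay Unigene48016_All, then CL320.Contig7_All at -2.02 in LmHC and CL6499.Contig1_All at -2.03 in LmHC. The limit therefore runs through a continuous range of changes, with no gap on either side of it.

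The floor of 100 FPKM was as gradual. Just above it were Unigene7381_All at 105 FPKM, Unigene16780_All at 106 FPKM and Unigene7500_All at 107 FPKM, each in LmHC, the lower of its 0 h libraries. Just below it, with falls that met the limit, were CL15017.Contig2_All at 96.5 FPKM, CL15017.Contig1_All at 96.4 FPKM and CL165.Contig1_All at 95.5 FPKM, each in LmLC.

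**Figure D2:**
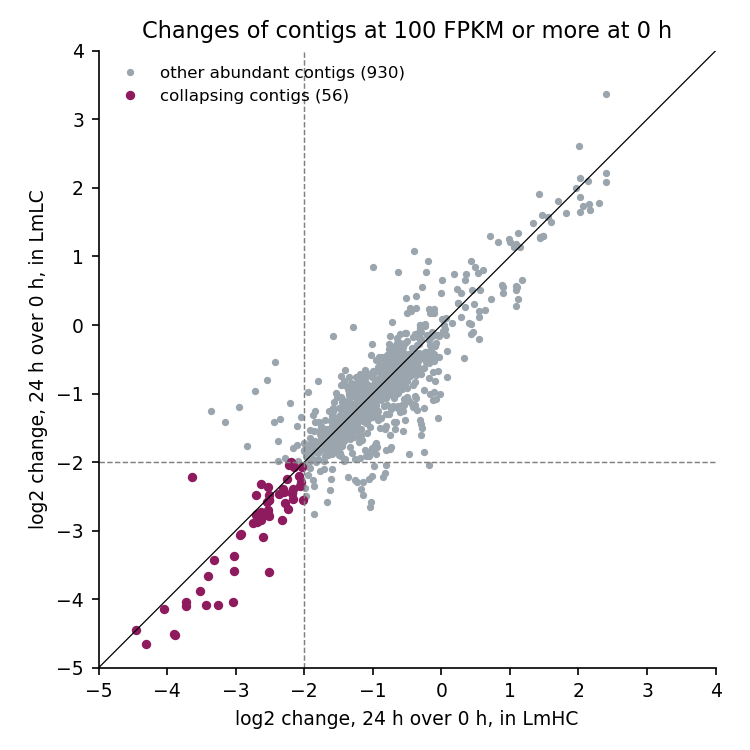
The log2 change from 0 h to 24 h in LmLC against that in LmHC for the 986 abundant contigs, with the 56 collapsing contigs in purple and the other 930 in grey; dashed lines mark -2 and the solid line marks equal changes. The purple points lie along and mostly just below the line of equal changes, and 20 grey points lie past the limit in LmHC alone and 30 in LmLC alone.

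The lines' changes ran together among the 56 contigs, where Pearson's r between them was 0.88 and Spearman's rho 0.82. Over all 986 abundant contigs these were 0.89 and 0.84. The lines share no library, but contigs of a cluster are not independent and the rule cuts off both changes at -2, so these values are a description. Contigs that met the limit in 1 line only were, at the median, also lower at 24 h in the other. The 20 abundant contigs past it in LmHC alone had a median log2 change of -1.44 in LmLC, and the 30 past it in LmLC alone had a median of -1.47 in LmHC. For all abundant contigs the medians were -1.14 in LmLC and -1.05 in LmHC.

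The fall was deeper in LmLC for 46 of the 56 contigs and deeper in LmHC for 10. The LmHC change minus the LmLC change had a median of 0.19 on the log2 scale, with quartiles of 0.06 and 0.35, and was within 0.25 of 0 for 31 contigs. Among the other 930 abundant contigs the median was 0.03, with the change lower in LmLC for 55.2%. Of these 930, 559 were within 0.25 of 0, so such closeness of the lines was not particular to the 56. With median of ratios scaling the median of the same 56 contigs was 0.30, and 50 were deeper in LmLC. This scaling multiplies a whole library by the same factor, so it also shifts the other 930 contigs. Their scaled values are not given here, so the 0.30 and the 50 cannot be set beside the unscaled 0.03 and 55.2%. With the limit set at a log2 change of -1.5 or less, the median over the 182 contigs then chosen was 0.046, and at -3 or less it was 0.36 over 15 contigs, so the size of the line difference depends on where the limit is set. The lines also differed in starting level, and a link between this and the depth difference across contigs was not tested. At 0 h, 44 of the 56 contigs were higher in LmLC, with a median log2 ratio of LmHC over LmLC of -0.18, whereas at 24 h 23 were, with a median of 0.05. Of all 986 abundant contigs, 634 (64.3%) were higher in LmLC at 0 h and 532 (54.0%) at 24 h, with median ratios of -0.07 and -0.03. The depth of the fall and these ratios come from the same 4 libraries, so they are one pattern described in different ways and not separate evidence. Because each line had 1 library per time, a difference between lines cannot be told apart from one between plants or preparations.

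**Figure D3:**
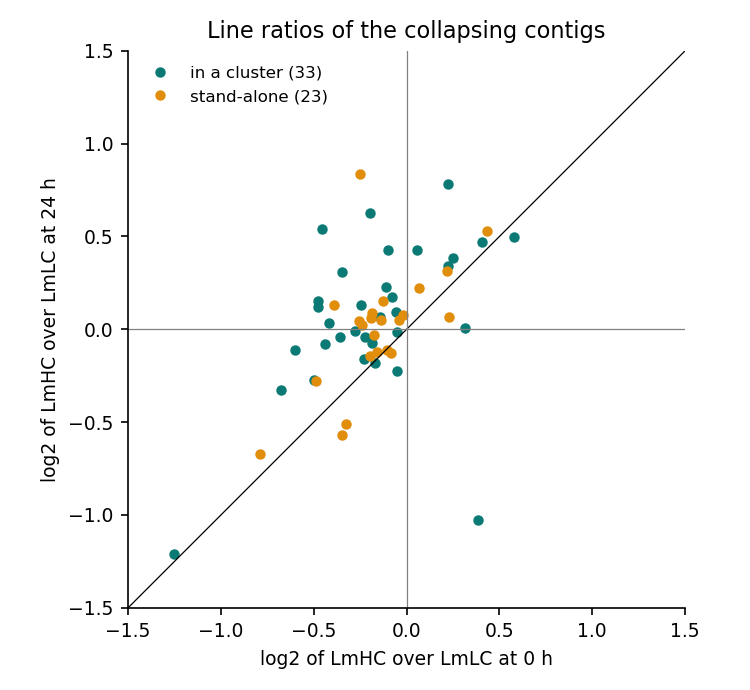
Log2 ratio of LmHC over LmLC at 24 h against the same ratio at 0 h for the 56 contigs, with those in clusters in green and those that stand alone in orange; the solid diagonal marks contigs with the same log2 change in both lines. Most points lie left of 0 on the horizontal axis and above the diagonal, where the fall was deeper in LmLC (46 of 56), and the far point below it is CL1100.Contig1_All.

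Few members differed widely between the lines in depth. At least 2-fold deeper in LmLC was 1 of 56, against 2.43% of abundant contigs, and at least 2-fold deeper in LmHC was 1 of 56, against 1.62%. The first was Unigene7500_All, which went from 107 to 17.8 FPKM in LmHC and from 127 to 9.50 FPKM in LmLC, a difference of 1.09 on the log2 scale. CL14990.Contig4_All came next, from 216 to 25.4 FPKM in LmHC and from 297 to 17.1 FPKM in LmLC, with a difference of 1.00 that stayed just under 2-fold. CL13273.Contig2_All went from 145 to 14.3 FPKM in LmHC and from 166 to 8.89 FPKM in LmLC, a difference of 0.82. Each of the 3 was higher in LmLC at 0 h and lower in LmLC at 24 h.

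In the other direction, CL1100.Contig1_All went from 292 to 22.6 FPKM in LmHC and from 223 to 47.0 FPKM in LmLC. Its log2 changes of -3.64 and -2.22 differ by -1.41, so 7.73% of its level remained in LmHC and 21.1% in LmLC. CL7593.Contig1_All went from 331 to 52.7 FPKM in LmHC and from 266 to 52.5 FPKM in LmLC, a difference of -0.31. Unigene13332_All went from 131 to 19.3 FPKM in LmHC and from 167 to 29.2 FPKM in LmLC, a difference of -0.22. The difference of CL1100.Contig1_All thus stood well apart from the next largest in its direction.

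At least 2-fold apart between the lines at 0 h was 1 member, against 0.304% of abundant contigs, and at 24 h 2 members, against 2.64%. CL5374.Contig1_All, named after its values were seen because the count is so small, was the one at 0 h and one of those at 24 h. It went from 144 to 24.5 FPKM in LmHC and from 345 to 58.0 FPKM in LmLC. Its level thus differed between the lines at both times while its log2 changes, -2.51 and -2.55, were alike. The other contig at 24 h was CL1100.Contig1_All.

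Of the 56 contigs, 33 lay in 25 clusters and 23 stood alone. The share in a cluster, 58.9%, compares with 70.0% of abundant and 60.7% of expressed contigs. Members in clusters had a median log2 change of -2.70 in LmHC and -2.84 in LmLC, and stand-alone members -2.52 and -2.58. Stand-alone members were also closer to each other, with quartiles of the remaining level at 16.3% and 20.0% in LmHC, against 8.66% and 20.9% for members in clusters. In LmLC the quartiles were 13.8% and 18.4% for stand-alone members and 5.98% and 18.2% for those in clusters. Some members share a cluster and are not independent, so these spreads are a description.

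The 25 clusters hold 154 contigs, from 2 to 20 each, and 21 of them have 1 member. RSEM, the program that estimated the levels, divides fragments that fit several contigs of a cluster among them, so levels within a cluster depend on each other. For this reason the summed level of a cluster is given beside its members.

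Cluster CL3063 has 8 contigs, 4 of them members, and had the highest summed level at 0 h of the 25. CL3063.Contig6_All, the member not yet described, went from 224 to 18.6 FPKM in LmHC and from 305 to 19.7 FPKM in LmLC. The 4 members kept between 6.54% and 8.30% of their level in LmHC and between 4.31% and 6.48% in LmLC. The 4 partners, which are the other contigs of the cluster, had 146 FPKM together in LmHC at 0 h and 9.96 at 24 h, and 179 and 11.7 FPKM in LmLC. Members and partners thus changed to a similar degree. As a whole the cluster went from 2624 to 191 FPKM in LmHC and from 3351 to 185 FPKM in LmLC, with members holding 94.4% of it in LmHC at 0 h and 94.8% at 24 h.

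Cluster CL14990 has 6 contigs and 3 members. CL14990.Contig3_All went from 160.1 to 13.9 FPKM in LmHC and from 204 to 11.0 FPKM in LmLC, and the other 2 members are given above. The members kept 6.22% to 11.7% of their level in LmHC and 3.98% to 5.76% in LmLC. They share a cluster and are not replicates of a line. The cluster went from 649 to 58.0 FPKM in LmHC and from 929 to 51.7 FPKM in LmLC, log2 changes of -3.46 and -4.14. Members held 85.4% of the cluster in LmHC at 0 h and 80.6% in LmLC, so the sum largely repeats their values.

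Cluster CL15017, with 8 contigs and 3 members, was less steep. CL15017.Contig3_All went from 376 to 62.4 FPKM in LmHC and from 439.7 to 64.2 FPKM in LmLC. CL15017.Contig6_All went from 144 to 22.9 FPKM in LmHC and from 218 to 24.8 FPKM in LmLC. CL15017.Contig7_All went from 155 to 19.4 FPKM in LmHC and from 131 to 14.7 FPKM in LmLC. Its members held 56.2% of the cluster in LmHC at 0 h and 49.0% at 24 h, and 3 of its partners are among the contigs named above as lying just outside the rule. The summed cluster kept 17.8% in LmHC and 16.2% in LmLC.

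The 25 clusters hold 121 partners. Of the 103 with a mean of at least 1 FPKM, 75 (72.8%) were at least 2-fold lower at 24 h in both lines, against 17.5% of all expressed contigs in clusters. At least 2-fold higher in both lines were 4, against 23.8%, and 0 moved at least 2-fold in opposite directions. Among the 42 partners that had at least 20 FPKM in each 0 h library, 41 were at least 2-fold lower in both lines, against 41.2% of the 4800 contigs in clusters at that level. A partner that met every limit would itself have been a member, and levels in a cluster depend on each other, so the counts are a description. Partners as a whole went from 4260 to 1076 FPKM in LmHC and from 4216 to 908 FPKM in LmLC, which left 25.3% and 21.5%.

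**Figure D4:**
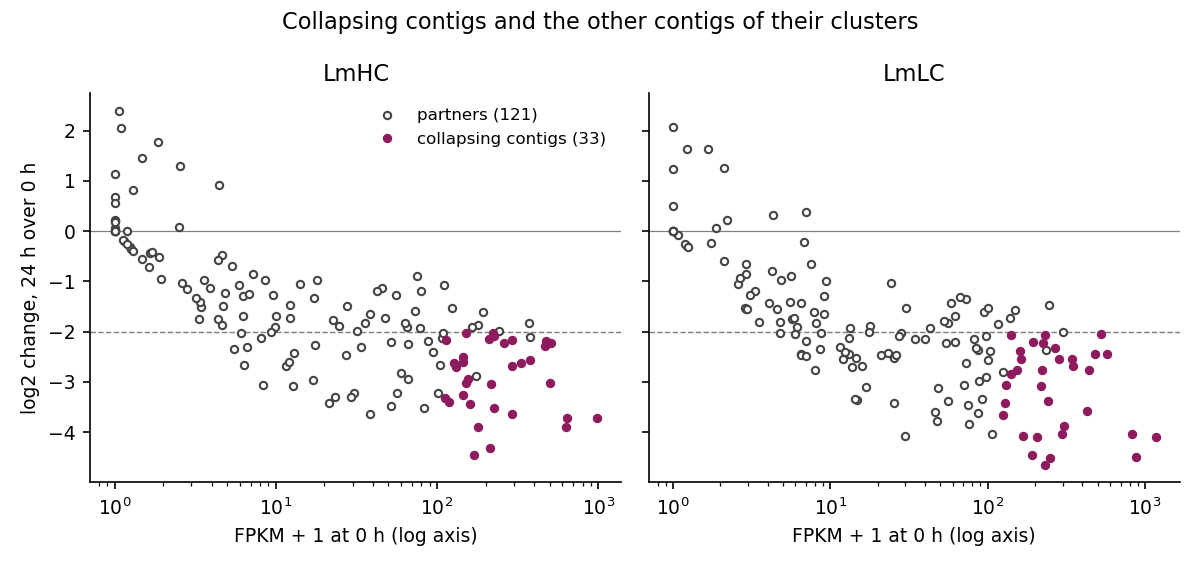
The log2 change from 0 h to 24 h against the level at 0 h (FPKM + 1, log axis) for the 33 members in clusters, in purple, and their 121 partners, as open circles, in LmHC on the left and LmLC on the right; the dashed line marks -2. Partners above 0 all have low levels at 0 h, where the added 1 also holds changes near 0, and partners at high levels lie near or below -1.

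Summed over all its contigs, every one of the 25 clusters was at least 2-fold lower in both lines, and 18 were at least 4-fold lower in both. Among all 933 clusters with a summed level of 100 FPKM or more in both 0 h libraries, 38 (4.07%) were at least 4-fold lower in both. The summed changes of the 25 ran from -4.46 to -1.62 in LmHC and from -4.70 to -1.78 in LmLC. Members held over 50% of the cluster at 0 h in 21 of 25 clusters in LmHC and 20 in LmLC, with medians of 89.5% and 84.6%. Because the 25 clusters were chosen for holding a member, the fall of their sums is largely set by the rule. Nothing is read from it beside the share of all 933 clusters.

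The gain of partners was small beside the loss of members. Partners that were higher at 24 h gained 26.7 FPKM together in LmHC and 17.8 FPKM in LmLC, whereas the members in clusters lost 8059 and 9409 FPKM, so that the gain was 0.331% and 0.189% of the loss. In cluster CL1707 the partners gained most. Its 2 members, CL1707.Contig1_All and CL1707.Contig2_All, had 731 FPKM together in LmHC at 0 h and 160.4 at 24 h, and 716 and 167 FPKM in LmLC, while its 6 partners went from 1.03 to 14.8 FPKM in LmHC and from 1.13 to 12.0 FPKM in LmLC. The highest of these partners at 24 h, CL1707.Contig5_All, went from 0.86 to 5.35 FPKM in LmHC and from 0.67 to 4.18 FPKM in LmLC. Of the 4 partners at least 2-fold higher in both lines, 3 belong to this cluster.

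Cluster CL3337 came next by the summed gain of its partners. Its member CL3337.Contig3_All went from 292 to 64.5 FPKM in LmHC and from 282 to 47.7 FPKM in LmLC, and its 3 partners went from 3.95 to 11.0 FPKM in LmHC and from 7.23 to 9.73 FPKM in LmLC. The highest partner, CL3337.Contig1_All, had 3.46 and 7.41 FPKM in LmHC and 6.04 and 8.18 FPKM in LmLC. In cluster CL7690, the third in this order, the single partner was already lower at 24 h, from 0.20 FPKM to a listed 0 in LmHC and from 3.89 to 1.48 FPKM in LmLC.

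In a few clusters the member was the smaller part. CL4986.Contig9_All made up 15.7% of its cluster of 13 contigs in LmHC at 0 h and 13.3% in LmLC, and the cluster as a whole kept 28.2% and 28.0% of its level. CL320.Contig7_All made up 19.4% of its cluster of 20 contigs in LmHC and 16.3% in LmLC, and the cluster kept 32.4% in LmHC and 16.5% in LmLC. This was the widest gap between lines in a summed cluster, 0.97 on the log2 scale, while the member itself differed by 0.53.

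CL1100.Contig1_All, the contig with the widest line difference of the 56, lies in a cluster whose sum differed less between the lines. Its share of the cluster went from 64.3% to 26.4% in LmHC and from 67.5% to 55.4% in LmLC. The 6 partners went from 162 to 62.9 FPKM in LmHC and from 107.5 to 37.9 FPKM in LmLC. Over the whole cluster the log2 change was -2.40 in LmHC and -1.95 in LmLC, a difference of -0.45 in place of -1.41 for the contig alone.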

How the data were processed

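RNA was measured in 4 libraries, 1 for each line and time. Per the labels' protocols, mRNA was purified on oligo(dT) beads. The deposited values are FPKM per contig, which the authors rounded to 2 decimals. The tools listed in the submitters' processing notes are Bowtie2 2.2.5 and RSEM 1.2.8. Assembler, contig lengths and filters were not given in the sources used here, and the depth is unknown. The members and the named contigs were chosen with earlier results of these data known. Members were found with a pseudocount of 1, a floor of 100 FPKM and a log2 limit of -2. With 1 library per group no test between groups was run. Contigs named are the 5 highest at 0 h, the 3 deepest and 3 shallowest falls, the 3 with the largest line difference each way, all members of the 3 clusters with most members, the 3 clusters whose partners gained most, and those next to each limit; exceptions are marked. Alternatives were other pseudocounts, floors, limits and scalings, and summed clusters. The step that applies the rule was checked on simulated falls of known size. That check shows only that the rule was applied as written, and it does not measure how reliable the members are. Python 3.11.15, numpy 2.4.6, pandas 2.3.3 and matplotlib 3.10.9 were used.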

Additional observations from a re-analysis of the deposited data

How the results depend on the processing

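Across the alternatives, 53 of 80 values were within a factor of 1.5 of those reported, 27 were not, and 0 changed sign. Only the line difference could have changed sign. The other values are counts, or losses and changes of contigs chosen for a fall. Values follow the order members, percentage points of the column total lost in LmHC and in LmLC, median of LmHC minus LmLC change, partners lower and partners higher in both lines, and only those beyond 1.5 times are given. Most of these settings also change how many partners there are, 121 as reported with 75 lower and 4 higher, so partner counts are given out of their own total. The floors, limits and partner limits differ in which contigs they admit, and otherwise the cause was not tested. With a floor of 50 FPKM there were 120 members, and of 313 partners 166 were lower and 13 higher. With a floor of 200 FPKM there were 32 members, and 36 of 65 partners were lower. At a log2 change of -1.5 or less there were 182 members, losses of 4.72 and 5.03, a line difference of 0.046, and of 333 partners 163 were lower and 16 higher. At -3 or less there were 15 members, losses of 0.580 and 0.688, a line difference of 0.36, and of 23 partners 14 were lower and 0 higher. Median of ratios scaling gave 33 members, losses of 1.07 and 1.24, a line difference of 0.30, and of 42 partners 33 were lower and 0 higher. With a pseudocount of 5, 32 of 87 partners were lower and 0 higher, and with a partner limit of 2 on the log2 scale 29 of 121 were lower and 1 higher. The share counted by the rule turned around, 43.5% as deposited, was 47.6% with median of ratios scaling. No paired analysis was possible because each group has 1 library. Because the depth is unknown, no precision can be given for the lowest levels at 24 h.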
